A study of Mus musculus with 18 samples.

Results

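The Hivep genes are the 3 mouse genes that encode HIVEP zinc finger proteins, and they were chosen from 51912 genes in the deposited table by matching Ensembl identifiers to symbols in the GRCm38 annotation. The family was selected on measured values of these same libraries, because Hivep3 was higher in Sh3gl1-/- than in WT cells in all 3 cell states. Differences between the genotypes in the 3 Hivep genes are therefore given as a description with no test, and tests are kept for the changes between cell states. RNA was sequenced from B cells of C57BL/6 WT mice and Sh3gl1-/- mice, which lack endophilin A2, a protein that bends membranes during endocytosis. Transitional and follicular B cells were untreated and taken ex vivo, and follicular B cells were also kept in culture with CD40L, which T cells carry and which activates B cells through CD40. The labels give this culture as 14 h, whereas the methods of the study call it overnight and its legends give a longer time. Each of the 6 groups (TRANS, FO and CD40L, each as WT and Sh3gl1-/-) had 3 libraries, with between 12404688 and 18366078 counts per library. The gene is missing from every cell of the Sh3gl1-/- mice, so a difference in their B cells can arise in other tissues, and the CD40L groups have no culture without CD40L beside them. The ages of the animals are not given in the sources used here. In bulk RNA, fewer cells of a type and less RNA per cell cannot be told apart.

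HIVEP proteins, also called Schnurri proteins, are very large transcription factors with separate pairs of C2H2 zinc fingers that bind DNA sequences of the NF-kB type. They are known as regulators of cytokine, TGF-beta/BMP and NF-kB signaling and of lymphocyte and bone development. HIVEP1 (Schnurri-1) was first described by its binding to the enhancers of HIV and of MHC class I genes, HIVEP2 (Schnurri-2) is known for restraining NF-kB in T cells, and HIVEP3 (Schnurri-3, also KRC) is known for partnering TRAF2 and c-Jun in T cells and for limiting RUNX2 in bone.

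Because these proteins bind sites of the NF-kB type, and CD40 signals through NF-kB, the bases before 1 RefSeq start site of each gene are shown, with any such site in them marked. The 3 windows are the 250 bases before the RefSeq start site on the plus strand of GRCm38.p6, with matches to the 10-base NF-kB consensus in capitals. They lie at chr13:42051771-42052020 for Hivep1, chr10:13966129-13966378 for Hivep2 and chr4:119814428-119814677 for Hivep3.
Hivep1: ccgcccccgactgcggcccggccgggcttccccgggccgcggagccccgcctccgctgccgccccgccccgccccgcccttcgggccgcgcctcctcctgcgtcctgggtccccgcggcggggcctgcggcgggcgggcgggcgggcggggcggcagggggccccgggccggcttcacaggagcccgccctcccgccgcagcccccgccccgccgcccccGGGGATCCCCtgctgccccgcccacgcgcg
Hivep2: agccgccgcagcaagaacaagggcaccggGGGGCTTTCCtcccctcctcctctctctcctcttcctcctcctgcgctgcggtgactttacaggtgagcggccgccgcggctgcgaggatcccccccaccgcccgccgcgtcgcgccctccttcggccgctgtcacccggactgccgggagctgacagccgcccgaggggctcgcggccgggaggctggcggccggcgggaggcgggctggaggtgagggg
Hivep3: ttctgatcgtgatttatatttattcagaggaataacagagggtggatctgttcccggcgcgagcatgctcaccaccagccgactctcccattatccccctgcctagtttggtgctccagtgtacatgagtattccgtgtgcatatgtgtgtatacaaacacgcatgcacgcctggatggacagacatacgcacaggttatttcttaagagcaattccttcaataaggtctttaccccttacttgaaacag
The Hivep1 window held 1 match, GGGGATCCCC, which starts at position -30 from the start site and reads the same on both strands. The Hivep2 window held 1 match, GGGGCTTTCC, on the plus strand at position -221. No match on either strand was in the Hivep3 window. Of 32851 RefSeq promoters of the same length, 1281 (3.9%) held a match. The windows also differed in base composition, with 88.4% G and C for Hivep1, 75.2% for Hivep2 and 46.4% for Hivep3. A match is a string of letters and not a measured binding site.

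On GRCm38, Hivep1 (ENSMUSG00000021366) lies at chr13:42052021-42192537 and has 5 transcripts of 501 to 8753 bases in the deposited table. Hivep2 (ENSMUSG00000015501) lies at chr10:13966075-14151374 and has 6 transcripts of 758 to 9846 bases. Hivep3 (ENSMUSG00000028634) lies at chr4:119733784-120138045 and has 9 transcripts of 270 to 11838 bases. All 3 are protein-coding genes on the plus strand, and the starts of the annotated transcripts of Hivep3 are spread over its whole locus. The window of Hivep3 holds the start of its longest transcript, at 119814495, and that of Hivep2 lies after the start of another of its transcripts, at 13966075, so that both windows lie in part or in whole inside the annotated gene and the match of Hivep2 is after that start. Hivep2 shares its locus with 2 genes on the opposite strand, Gm26835, with 5 to 256 counts, and Gm28289, with 0 to 22 counts. The labels name a stranded library kit and the methods of the study another kit, and whether counting used strand is not given in the sources used here, so that counts of Hivep2 and these genes may have been mixed. No other annotated gene overlaps Hivep1 or Hivep3. All 3 Hivep genes passed the filter on low counts in every comparison.

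The label of the genotype was first checked against Sh3gl1 itself (chr17:56016750-56036635), on a chromosome that holds none of the Hivep genes. Counts of Sh3gl1 were 377 to 929 in the 9 WT libraries and 1 to 22 in the 9 Sh3gl1-/- libraries. The cell types were checked with marker lists, whose levels are summed in CPM (counts per 1e6 after TMM scaling). All 7 B-cell markers were above 3 counts in every group, and their sum was lowest in CD40L-cultured Sh3gl1-/- cells at 8801.5 to 9493.6 CPM and highest in transitional WT cells at 16301.2 to 18968.0 CPM. The 6 transitional markers, led by Vpreb3, summed to a median of 994.4 CPM in transitional WT cells and 433.6 CPM in follicular WT cells. Rag1 and Rag2, the recombinase genes of B-cell precursors, were at 0 in all 6 ex vivo follicular libraries. The 4 follicular markers, led by Fcer2a, which encodes CD23, summed to 2470.9 CPM in transitional and 3552.0 CPM in follicular WT cells.

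Hivep3 was the member whose genotypes were apart in all 3 states. In transitional cells it measured 34.0, 42.9 and 36.3 CPM in the 3 WT libraries and 138.1, 138.4 and 128.6 CPM in the 3 Sh3gl1-/- libraries. Every Sh3gl1-/- library was above every WT library, and the lowest was 3.0 times the highest WT value. In follicular cells ex vivo, Hivep3 measured 12.4, 12.7 and 7.68 CPM in WT and 67.6, 55.4 and 47.9 CPM in Sh3gl1-/- libraries. The groups were again apart, by 3.77 times. After CD40L culture the values were 17.8, 10.2 and 13.9 CPM in WT and 39.6, 57.5 and 39.1 CPM in Sh3gl1-/- libraries, with a gap of 2.2 times between the nearest libraries. The log2 fold change of Sh3gl1-/- over WT was 1.84 (SE 0.10) in transitional cells, 2.38 (SE 0.19) in follicular cells and 1.73 (SE 0.25) after CD40L culture. Ordered by this log2 fold change, Hivep3 was at place 61 of 13774 genes in transitional cells, 17 of 13610 in follicular cells and 42 of 13188 after CD40L culture. As background, the percentage of all tested genes called higher in Sh3gl1-/- cells (edgeR's quasi-likelihood test, threshold 0.05 after adjustment) was 1.26% in transitional, 0.485% in follicular and 0% in CD40L-cultured cells. The percentage called lower was 2.48%, 0.36% and 0.0227%. In CD40L-cultured cells 932 genes had an unadjusted p under 0.05 in either direction, and DESeq2 called 75.

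**Figure D1:**
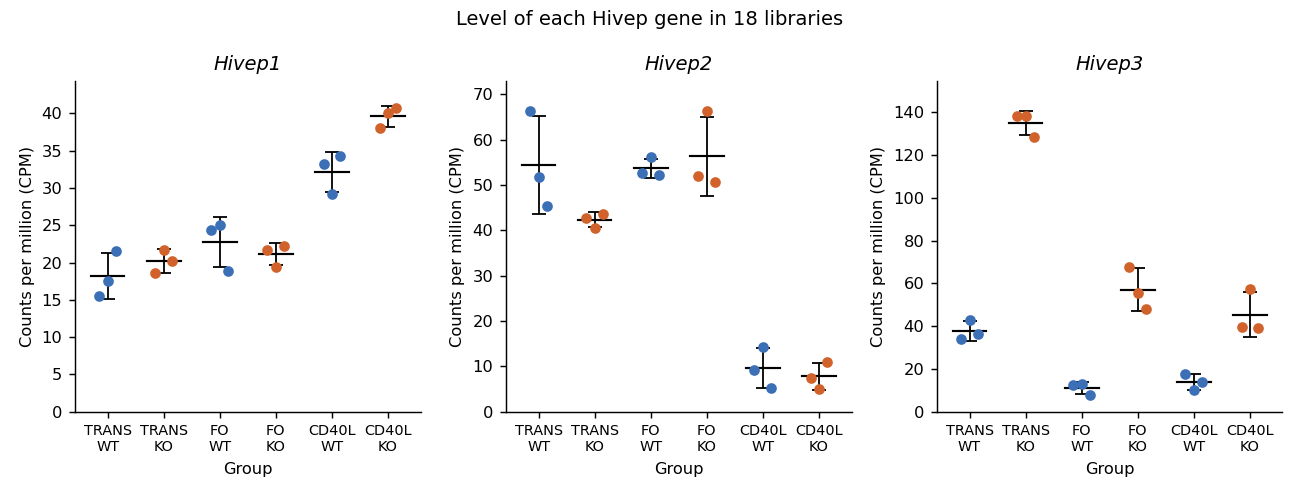
Level of each Hivep gene (y axis, CPM) in the 3 libraries of each group (x axis), with WT in blue, Sh3gl1-/- (KO) in orange, and bars for the mean and SD. The Sh3gl1-/- points of Hivep3 lie above the WT points in each cell state, Hivep2 is near the bottom of its axis in both CD40L groups, and Hivep1 is highest there.

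Hivep1 and Hivep2 were each separated in 1 state. Hivep1 in transitional cells was 15.5, 17.5 and 21.5 CPM in WT and 18.6, 21.7 and 20.2 CPM in Sh3gl1-/- libraries, and in follicular cells it was 24.3, 25.1 and 18.9 CPM against 21.7, 19.4 and 22.2 CPM. The genotypes overlapped in both states, with log2 fold changes of 0.15 (SE 0.15) and -0.11 (SE 0.15). After CD40L culture Hivep1 was 33.2, 29.2 and 34.3 CPM in WT and 38.1, 40.0 and 40.7 CPM in Sh3gl1-/- libraries. These ranges were apart, with a log2 fold change of 0.33 (SE 0.14). Hivep2 in transitional cells was 66.4, 51.7 and 45.3 CPM in WT and 42.7, 40.5 and 43.7 CPM in Sh3gl1-/- libraries, so that here the Sh3gl1-/- libraries were the lower ones (log2 fold change -0.37, SE 0.14, and -0.19 without transitional WT replicate 1). In follicular cells it was 52.7, 56.1 and 52.2 CPM against 51.9, 66.3 and 50.7 CPM, and after CD40L culture 9.29, 14.3 and 5.28 CPM against 7.46, 5.01 and 10.9 CPM. The genotypes overlapped in these states, with log2 fold changes of 0.07 (SE 0.12) and -0.27 (SE 0.39). Both changed sign under alternatives, to -0.07 without follicular Sh3gl1-/- replicate 2 and to 0.13 without CD40L WT replicate 2.

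The sums of marker lists were set beside these values. That of the 7 B-cell markers had medians of 18731.8 CPM in WT and 13533.4 CPM in Sh3gl1-/- transitional cells, 13017.1 and 11710.1 CPM in follicular cells and 10144.7 and 9188.1 CPM after CD40L culture, and the genotypes overlapped only in transitional cells. The 6 erythroid markers, led by the hemoglobin gene Hba-a2, summed to a median of 2849.9 CPM in WT and 8346.8 CPM in Sh3gl1-/- transitional cells, 3353.4 and 6198.5 CPM in follicular cells, and 34.3 and 54.9 CPM after CD40L culture. The genotypes overlapped in follicular cells, at 1351.3 to 3630.5 CPM in WT and 2801.3 to 8769.2 CPM in Sh3gl1-/- libraries. After CD40L culture they also overlapped, at 4.13 to 347.6 CPM and 28.9 to 107.3 CPM. Mean Hba-a2 was then 49.8 CPM in WT and 25.8 CPM in Sh3gl1-/- cells. The 8 neutrophil markers, led by Ngp, summed to 65.6 and 177.8 CPM, 76.8 and 299.1 CPM, and 23.6 and 56.9 CPM in the same order. The 7 T-cell markers, led by Lat in most groups, summed to 55.8 and 115.9 CPM, 92.3 and 162.9 CPM, and 20.4 and 33.8 CPM, with no overlap between the genotypes in any state. The 6 plasma-cell markers, led by Jchain, summed to 690.4 and 2881.4 CPM in transitional cells but to 184.1 and 216.8 CPM in follicular and 263.2 and 257.6 CPM in CD40L-cultured cells. In transitional cells Jchain made most of this difference, at 547.0 and 2787.3 CPM. Irf4 was at 77.1 and 71.8 CPM and Sdc1 at 2.73 and 2.8 CPM. The other members were higher in Sh3gl1-/- cells, with Xbp1 at 17.3 and 30.7, Tnfrsf17 at 0.815 and 3.33 and Prdm1 at 0.835 and 1.1 CPM. The sum of the transitional markers was lower in Sh3gl1-/- cells in each state, with medians of 611.3, 302.0 and 39.9 CPM against 994.4, 433.6 and 83.0 CPM in WT, and the 6 marginal zone markers were also lower, at 892.7, 938.2 and 358.1 CPM against 1444.6, 1245.5 and 509.4 CPM. The transitional sum was carried by Vpreb3 (524.8 CPM in WT and 363.4 CPM in Sh3gl1-/- transitional cells) and Cd24a (365.9 and 199.9 CPM), whereas Cd93, which marks the immature gate in the study, was 64.9 and 75.6 CPM in transitional, 12.8 and 21 CPM in follicular and 9.32 and 7.58 CPM in CD40L-cultured cells. The part of these cells in the level of Hivep3 was not tested. The methods of the study state that follicular B cells were sorted before their RNA was isolated.

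The first change of state addressed was maturation, from transitional to follicular cells. Hivep3 was lower in follicular cells of both genotypes. In WT cells the mean went from 37.7 ± 4.62 CPM to 10.9 ± 2.82 CPM (SD, n = 3), a fall by 1.77 on the log2 scale (SE 0.17, edgeR adjusted p = 1.5e-05), and in Sh3gl1-/- cells from 135 ± 5.57 CPM to 57.0 ± 9.94 CPM, a fall by 1.25 (SE 0.16, edgeR adjusted p = 0.00018). The ranges were apart in both genotypes, and follicular Sh3gl1-/- cells still held more Hivep3 than transitional WT cells. As background, 11.7% of the 14580 genes tested were called higher and 14.2% lower in follicular than in transitional WT cells, and 3.7% higher and 6.71% lower in Sh3gl1-/- cells. Marker sums of some other cells were also lower in follicular cells, with medians of 437.5 and 114.0 CPM for monocytes and macrophages, 690.4 and 184.1 CPM for plasma cells and 90.9 and 12.1 CPM for germinal centre cells in transitional and follicular WT cells, and 443.1 and 206.9, 2881.4 and 216.8, and 46.7 and 12.6 CPM in Sh3gl1-/- cells. Their part in the change of Hivep3 was not tested.

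Hivep1 and Hivep2 did not pass the test in this comparison. The log2 fold change of Hivep1 was 0.34 (SE 0.15, edgeR adjusted p = 0.11) in WT and 0.06 (SE 0.15, edgeR adjusted p = 0.86) in Sh3gl1-/- cells. That of Hivep2 was -0.01 (SE 0.14, edgeR adjusted p = 0.96) in WT and 0.41 (SE 0.14, edgeR adjusted p = 0.074) in Sh3gl1-/- cells, where DESeq2 gave an adjusted p of 0.041. Without transitional WT replicate 3 or follicular WT replicate 3 Hivep1 passed in WT cells, with log2 fold changes of 0.48 and 0.46.

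**Figure D2:**
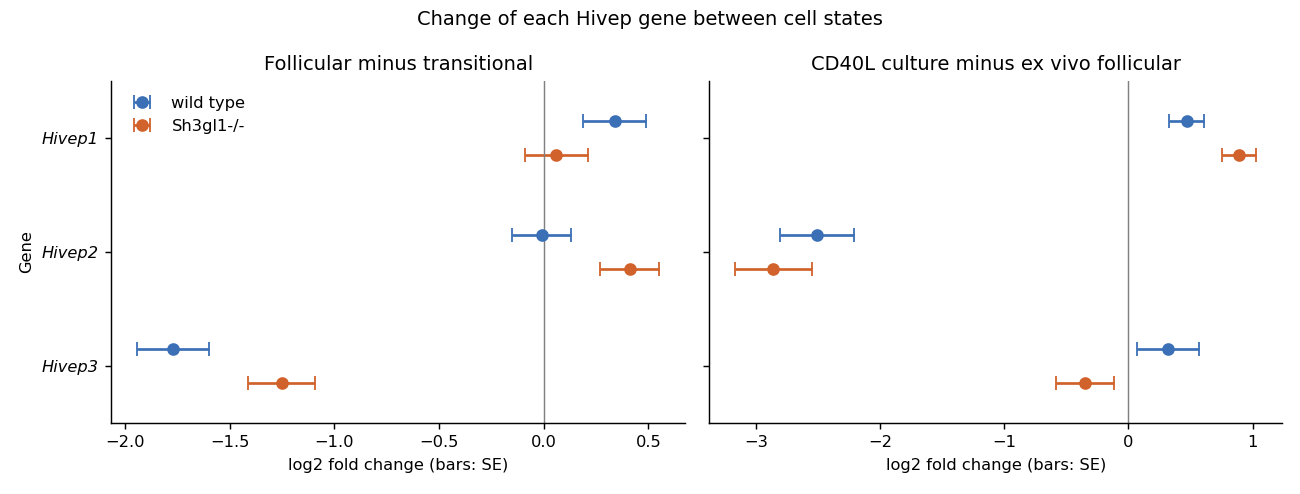
Log2 fold change of each Hivep gene (x axis, bars show the SE) between follicular and transitional cells (left) and between CD40L-cultured and ex vivo follicular cells (right), with WT in blue and Sh3gl1-/- in orange, from 3 libraries per group. Hivep3 lies left of 0 on the left panel at -1.77 and -1.25, and Hivep2 lies left of 0 on the right panel at -2.51 and -2.86.

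The second change was activation by CD40L, and here Hivep2 and Hivep1 changed in opposite directions. Hivep2 fell from 53.7 ± 2.12 CPM to 9.62 ± 4.52 CPM in WT cells (SD, n = 3), by 2.51 on the log2 scale (SE 0.30, edgeR adjusted p = 1.3e-05), and from 56.3 ± 8.68 CPM to 7.79 ± 2.96 CPM in Sh3gl1-/- cells, by 2.86 (SE 0.31, edgeR adjusted p = 6.4e-06). Every CD40L library was far below every ex vivo library. The rounded counts behind the low values were 86 to 214 in WT and 63 to 175 in Sh3gl1-/- libraries, well above the 3 counts that were taken as the floor. Hivep1 rose from 22.8 ± 3.37 CPM to 32.2 ± 2.68 CPM in WT cells, with a log2 fold change of 0.47 (SE 0.14, edgeR adjusted p = 0.011), and from 21.1 ± 1.49 CPM to 39.6 ± 1.35 CPM in Sh3gl1-/- cells, with a log2 fold change of 0.89 (SE 0.14, edgeR adjusted p = 0.00016). The WT call for Hivep1 was lost without follicular WT replicate 3 (log2 fold change 0.35). Hivep3 did not pass in either genotype, with log2 fold changes of 0.32 (SE 0.25, edgeR adjusted p = 0.3) for WT and -0.35 (SE 0.23, edgeR adjusted p = 0.25) for Sh3gl1-/- libraries. As background, 23.6% of the 14460 genes tested were called higher and 25.7% lower after CD40L culture in WT cells, and 20.6% higher and 21.8% lower in Sh3gl1-/- cells, so that a call in this comparison was common. Culture also lowered the marker sums of some other cells in WT libraries, from medians of 3353.4 to 34.3 CPM for erythroid cells, 76.8 to 23.6 CPM for neutrophils and 92.3 to 20.4 CPM for T cells. Median sums of germinal centre, plasma and B-1 cells rose, from 12.1 to 27.7, 184.1 to 263.2 and 64.1 to 79.9 CPM. In Sh3gl1-/- libraries the T-cell median went from 162.9 to 33.8 CPM and the germinal centre median from 12.6 to 23.1 CPM. The part of these cells in the change of Hivep2 was not tested. Time in culture and CD40L cannot be told apart.

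The difference between the genotypes in these changes was fitted as an interaction, with a positive log2 value where the change was higher in Sh3gl1-/- cells. For Hivep3 it was 0.52 (SE 0.23) for maturation and -0.67 (SE 0.34) for CD40L. These values carry no test, because they are differences of the genotype differences for which Hivep3 was chosen. Hivep1 and Hivep2 were tested and did not pass. For Hivep2 the interaction was 0.42 (SE 0.19, edgeR adjusted p = 0.36) in maturation and -0.35 (SE 0.42, edgeR adjusted p = 0.85) with CD40L, and for Hivep1 it was -0.28 (SE 0.21, edgeR adjusted p = 0.6) and 0.42 (SE 0.19, edgeR adjusted p = 0.56). Among all genes, 0.0686% were called for maturation, which was 10 genes, and 99 were called with the replicate number within each genotype as a block. For CD40L 0% were called, with 1278 genes at an unadjusted p under 0.05 and 12 called by DESeq2.

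The order of the 6 groups differed from gene to gene. Ratios in this paragraph are between group means. Hivep3 was highest in transitional Sh3gl1-/- cells, which were apart from the next group with a ratio of 2.37. Follicular Sh3gl1-/-, CD40L-cultured Sh3gl1-/- and transitional WT cells followed, each overlapping the next. Transitional WT cells stood apart from the last groups, the CD40L-cultured and follicular WT cells. The ratio of transitional WT to CD40L-cultured WT cells was 2.69. Hivep1 was highest in CD40L-cultured Sh3gl1-/- and then in CD40L-cultured WT cells, which were apart from each other and from the 4 ex vivo groups, whose neighbors overlapped. For Hivep2 follicular Sh3gl1-/-, transitional WT and follicular WT cells overlapped at the top, transitional Sh3gl1-/- cells were next and apart, and the CD40L groups were lowest, with a ratio of 4.4 between transitional Sh3gl1-/- and CD40L-cultured WT cells. Over the 18 libraries, the log2 CPM of Hivep1 and Hivep2 had a Pearson r of -0.91, that of Hivep1 and Hivep3 -0.23, and that of Hivep2 and Hivep3 0.17. These values describe libraries that fall into separate groups and carry no test.

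Levels of different genes were compared per length, and the order of Hivep1 and Hivep2 depended on the length used. In CPM per kb of the longest listed transcript, follicular WT cells had 5.45 ± 0.217 for Hivep2, 2.6 ± 0.386 for Hivep1 and 0.923 ± 0.238 for Hivep3 (SD, n = 3). On this scale Hivep2 made up 60.9% ± 3.85 of the family in follicular WT cells, 44.1% ± 5.1 in follicular Sh3gl1-/- cells and 16.8% ± 8.23 in CD40L-cultured WT cells. Hivep3 made up 29.6% ± 4.09 in transitional WT and 63.3% ± 1.44 in transitional Sh3gl1-/- cells. In the deposited TPM, the estimated share of transcripts, follicular WT cells instead had 15.9 ± 2.68 for Hivep1, 7.16 ± 0.466 for Hivep2 and 2.61 ± 0.807 for Hivep3. Hivep1 then made up 61.9% ± 4.22 of the family in these cells. On both scales mean Hivep3 was highest in transitional Sh3gl1-/- cells, and mean Hivep1 was highest after CD40L culture in both genotypes. Per kb, however, Hivep1 and Hivep3 overlapped in CD40L-cultured Sh3gl1-/- cells, at 4.35 to 4.65 and 3.3 to 4.85.

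**Figure D3:**
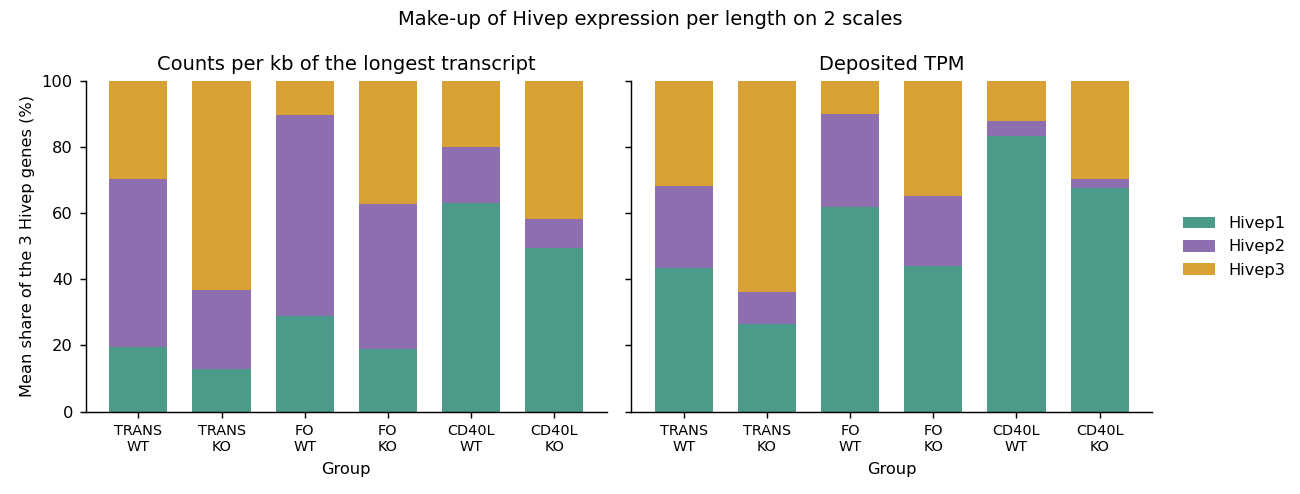
Mean share of each Hivep gene in the summed level of the 3 genes (y axis, percent) in each group (x axis, 3 libraries), per kb of the longest transcript (left) and in the deposited TPM (right). Hivep2 takes the most in follicular WT cells on the left and Hivep1 on the right, while Hivep3 takes the most in transitional Sh3gl1-/- cells on both.

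The effective length that RSEM, the program behind the deposited estimates, used for each gene follows from its counts and FPKM, and the order in TPM follows from it by calculation. For Hivep1 it was 1342 to 2232 bases over the 18 libraries, although the longest transcript has 8753 bases, so that much of the estimated expression was assigned to short transcripts. For Hivep2 it was 8613 to 9684 bases, near its longest transcripts, and for Hivep3 3323 to 5963 bases. The length for Hivep3 was 4712 to 4857 bases in transitional WT and 4306 to 4428 bases in transitional Sh3gl1-/- libraries, which did not overlap, while it overlapped between the genotypes in follicular and CD40L-cultured cells. The reads of single transcripts are not analysed here. In TPM the ratio of mean Hivep3 in Sh3gl1-/- over WT cells was 3.76 in transitional, 4.53 in follicular and 3.18 in CD40L-cultured cells, against 3.58, 5.21 and 3.25 in CPM.

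**Figure D4:**
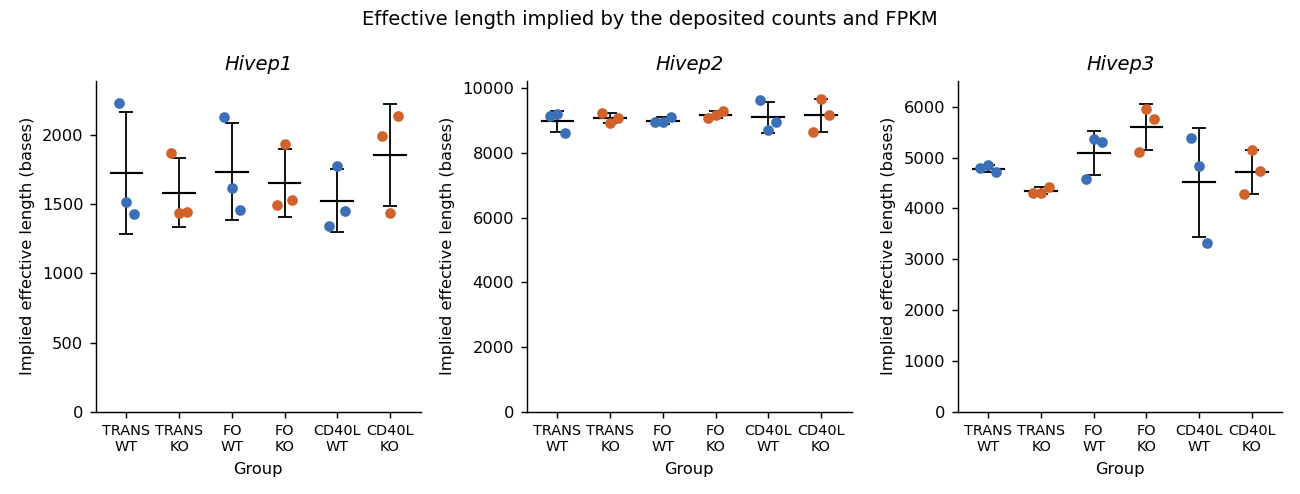
Effective length implied by the deposited counts and FPKM (y axis, bases) for each Hivep gene in the 3 libraries of each group (x axis), with WT in blue, Sh3gl1-/- (KO) in orange, and bars for the mean and SD. Hivep1 lies between 1342 and 2232 bases in all libraries and Hivep2 between 8613 and 9684 bases.

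The genes around Hivep3 were compared between the genotypes as well. Its nearest tested protein-coding neighbors are Foxj3, 104.7 kb before it, which encodes a forkhead transcription factor, and Scmh1, 267.2 kb after it, which encodes a Polycomb protein. The log2 fold change of Sh3gl1-/- over WT cells for Foxj3 was 0.15 (SE 0.15), -0.01 (SE 0.12) and 0.11 (SE 0.20) in transitional, follicular and CD40L-cultured cells, and for Scmh1 it was -0.20 (SE 0.21), -0.09 (SE 0.19) and 0.14 (SE 0.20). Within 1 Mb of Hivep3, 1 of 18 tested genes was called in transitional cells, 0 of 17 in follicular cells and 0 of 20 after CD40L culture, beside 1.26% higher and 2.48% lower, 0.485% and 0.36%, and 0% and 0.0227% of all genes, so that these counts are near the background. Their log2 fold changes ranged from -0.69 to 1.34, from -0.49 to 1.56 and from -1.87 to 0.92. The highest in transitional and follicular cells was that of Ermap, an erythroid membrane protein gene, at 1.34 (SE 0.76, edgeR adjusted p = 0.34) and 1.56 (SE 0.62, edgeR adjusted p = 0.38), which was named after its values were seen and was not called. The 1 called gene, named after its value was seen, was Slc2a1, which encodes the glucose transporter GLUT1. It was lower in Sh3gl1-/- cells (log2 fold change -0.57, SE 0.10, edgeR adjusted p = 0.025). This call was not followed with single libraries left out, which took the 514 calls among all genes to between 28 and 479. The nearest tested protein-coding neighbors of Hivep1 (Tmem170b and Tbc1d7) and Hivep2 (Aig1 and Vta1) were not called in any state. Within 1 Mb, 1 of 5 tested genes near Hivep1 and 1 of 10 near Hivep2 were called in transitional cells. In the other states 0 were called near either gene.

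The 5 genes whose log2 CPM was most like that of each Hivep gene over the 18 libraries were picked from 15064 genes by Pearson r. For Hivep3 they were Atp1b1 (r = 0.871), Fam3c (0.868), Spry2 (0.859), Gm47357 (0.853) and Slco5a1 (0.834). Atp1b1, the beta subunit of the sodium pump, was 19.6 ± 2.91 CPM in transitional WT and 41.7 ± 5.34 CPM in transitional Sh3gl1-/- cells, and 7.92 ± 0.521 and 22.3 ± 5.01 CPM in follicular cells. Spry2, an inhibitor of receptor tyrosine kinase signaling, was 3.88 ± 0.536 and 6.67 ± 0.182 CPM in transitional and 2.20 ± 0.0179 and 4.93 ± 0.976 CPM in follicular cells. For Hivep2 the genes were Arhgef10 (0.989), Tbc1d10c (0.982), Tnfrsf26 (0.98), Gm16214 (0.979) and Pde4b (0.979). Pde4b, a cAMP phosphodiesterase, was 278.0 ± 6.78 CPM in follicular WT cells and 102.2 ± 7.04 CPM after CD40L culture, and Tnfrsf26, a TNF receptor family member, went from 73.3 ± 9.81 to 14.7 ± 3.23 CPM. For Hivep1 they were Pabpc4 (0.949), Inka1 (0.948), Txnl1 (0.945), Rapgef1 (0.941) and Calm3 (0.939), and Pabpc4, a poly(A)-binding protein, was 14.6 ± 3.89 CPM in follicular WT and 42.7 ± 3.30 CPM in CD40L-cultured WT cells. These correlations describe how the levels followed the groups and are not tests.

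Genes linked to the HIVEP proteins were followed in 5 lists. Their counts with CD40L are read beside the 23.6% of all genes called higher and 25.7% called lower in WT cells, and the 20.6% and 21.8% in Sh3gl1-/- cells. Of 12 NF-kB family genes and inhibitors tested, 7 rose and 1 fell with CD40L in WT cells (median log2 fold change 0.65, against -0.08 over all genes), and 8 rose and 0 fell in Sh3gl1-/- cells (median 0.57, against -0.03). In WT cells Tnfaip3, which encodes the NF-kB inhibitor A20, rose by 3.69 (SE 0.23, edgeR adjusted p = 3.8e-08), Nfkbia, which encodes IkB-alpha, by 1.97 (SE 0.21, edgeR adjusted p = 4.2e-06), Nfkbie by 1.77 (SE 0.13, edgeR adjusted p = 2.1e-07) and Nfkb2, the precursor of p52, by 1.45 (SE 0.18, edgeR adjusted p = 2e-05). In Sh3gl1-/- cells the called members with the lowest adjusted p were Tnfaip3 (3.32, SE 0.23), Nfkbie (1.86, SE 0.14), Nfkbia (2.59, SE 0.22) and Nfkbib (1.72, SE 0.21). In maturation Bcl3 (0.81, SE 0.18) and Nfkb1 (0.21, SE 0.07) rose in WT cells and 0 fell, against 11.7% and 14.2% of all genes. The call of Nfkb1 was kept only without follicular WT replicate 2 when single libraries were left out, with adjusted p up to 0.11. DESeq2 called 4 and the replicate block within genotype 5 in place of these 2. In Sh3gl1-/- cells 0 were called by edgeR or DESeq2, with 2 at an unadjusted p under 0.05, and 1 with the replicate block within genotype. Between the genotypes 0 of 12 were called in each state by edgeR, with 4, 1 and 1 at an unadjusted p under 0.05 and 1, 0 and 0 called by DESeq2 in transitional, follicular and CD40L-cultured cells. Of all genes, edgeR called 1.26% higher and 2.48% lower, 0.485% and 0.36%, and 0% and 0.0227% in these states, so that 0 of 12 is near the background. Of the 13774, 13610 and 13188 genes tested in these states, 2996, 1481 and 932 had an unadjusted p under 0.05. DESeq2 called 1245, 345 and 75 genes, and these counts also apply to the lists below.

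**Figure D5:**
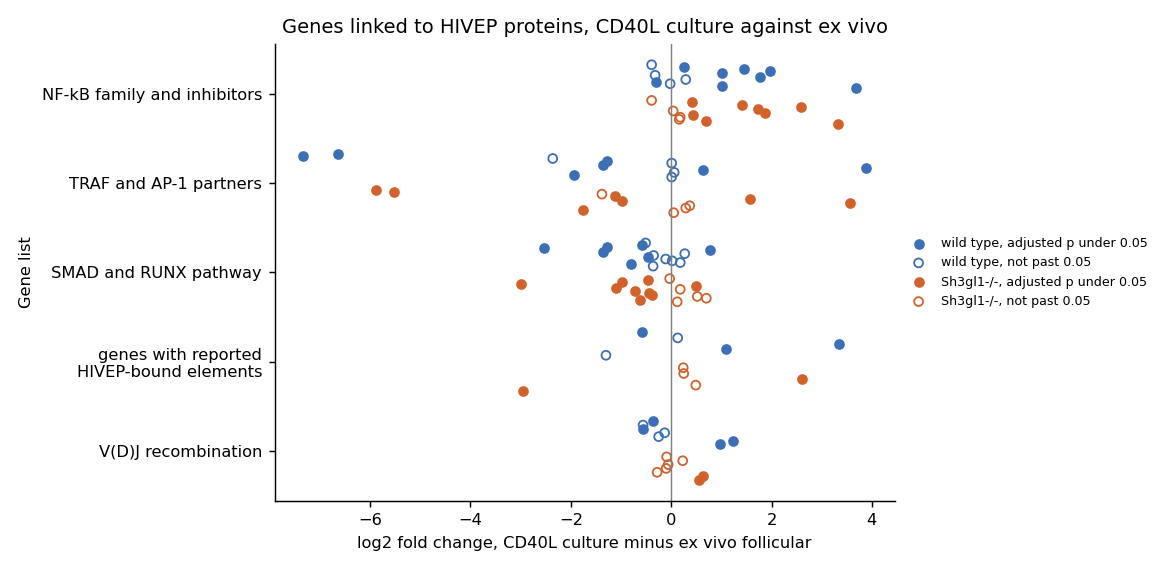
Log2 fold change between CD40L-cultured and ex vivo follicular cells (x axis) for the tested genes of 5 lists linked to HIVEP proteins (y axis), with WT in blue, Sh3gl1-/- in orange and filled points for genes called by edgeR. The called NF-kB genes lie mostly right of 0, reaching 3.69 for Tnfaip3 in WT cells, and the called SMAD and RUNX genes lie mostly left of 0.

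The TRAF and AP-1 list holds the HIVEP3 partners Traf2 and Jun and other members of their families. Of 11 tested with CD40L, 2 rose and 5 fell in each genotype (all genes, 23.6% and 25.7% in WT, 20.6% and 21.8% in Sh3gl1-/- cells), and the median log2 fold change was -1.28 for WT and -0.99 for Sh3gl1-/-. The values of these 2 partners are given whatever their rank and were added after they were seen. Traf2 had log2 fold changes of 0.64 (SE 0.15, edgeR adjusted p = 0.0025) in WT and 0.37 (SE 0.15, edgeR adjusted p = 0.053) in Sh3gl1-/- cells, and Jun, which encodes c-Jun, had -1.28 (SE 0.40, edgeR adjusted p = 0.016) and -1.11 (SE 0.39, edgeR adjusted p = 0.033). Traf1, a TRAF adaptor, rose by 3.89 (SE 0.17, edgeR adjusted p = 1.5e-09) in WT and 3.56 (SE 0.17, edgeR adjusted p = 3e-09) in Sh3gl1-/- cells. Traf5 had log2 fold changes of -1.93 (SE 0.14) and -1.75 (SE 0.14), and Jund had -1.35 (SE 0.27) in WT cells. Fos, an AP-1 subunit, fell from 13.5 ± 0.471 CPM to 0.133 ± 0.117 CPM in WT cells and from 5.86 ± 1.23 to 0.0861 ± 0.0945 CPM in Sh3gl1-/- cells (edgeR adjusted p = 1.3e-07 and 9.2e-07), to below the value of 3 counts, so no fold is given. Junb rose in Sh3gl1-/- cells (log2 fold change 1.57, SE 0.40, edgeR adjusted p = 0.0061). In maturation Traf1 rose in both genotypes, by 1.28 (SE 0.21) for WT and by 1.02 (SE 0.20) for Sh3gl1-/-, and it was the 1 called member of 11 in the latter. In WT cells Jun also rose (1.18, SE 0.40) and Traf2 had a log2 fold change of -0.30 (SE 0.10). These counts stand beside 11.7% of all genes called higher and 14.2% lower in WT and 3.7% and 6.71% in Sh3gl1-/- cells. Between the genotypes Jun was called in transitional cells, higher in Sh3gl1-/- (log2 fold change 1.69, SE 0.38, edgeR adjusted p = 0.045), at 1.3 ± 0.410 and 4.22 ± 1.01 CPM, and Fos was called in follicular cells, lower in Sh3gl1-/- (-1.20, SE 0.21, edgeR adjusted p = 0.025). Both calls were fragile. That of Jun was lost without any 1 of the 6 libraries (adjusted p 0.063 to 0.19), and that of Fos without any but follicular Sh3gl1-/- replicate 2 (0.053 to 0.11). In maturation the call of Jun was kept only without follicular WT replicate 2, and that of Traf2 only without transitional WT replicate 3. After CD40L culture 0 of 8 tested were called by edgeR or DESeq2, with 1 at an unadjusted p under 0.05. The shares of all genes called between the genotypes were 1.26% higher and 2.48% lower, 0.485% and 0.36%, and 0% and 0.0227% in the 3 states.

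Of 14 tested SMAD and RUNX pathway genes, 1 rose and 6 fell with CD40L in WT cells (median -0.42) and 1 rose and 8 fell in Sh3gl1-/- cells (median -0.41). With the replicate block within genotype, 6 were called in WT and 6 in Sh3gl1-/- cells. Of all genes, 23.6% rose and 25.7% fell in WT and 20.6% and 21.8% in Sh3gl1-/- cells, so that in WT cells the share called in either direction was near that of all genes. Runx1, a transcription factor of blood cell development, had log2 fold changes of -1.27 (SE 0.16, edgeR adjusted p = 1.8e-05) and -0.98 (SE 0.16, edgeR adjusted p = 0.00022), and Tgfbr2, a TGF-beta receptor, -0.81 (SE 0.16) and -0.63 (SE 0.16). Cbfb, the partner of RUNX proteins, had -0.58 (SE 0.17) in WT cells, Smad3 had -0.73 (SE 0.20) in Sh3gl1-/- cells, and Runx3 rose by 0.77 (SE 0.18) in WT cells. Runx2, the target that HIVEP3 limits in bone, also had a call in both genotypes, but it lay between 0.195 and 1.57 CPM on average in every group. In maturation 5 rose and 0 fell in WT cells (median 0.14, against 0.03 over all genes), among them Tgfbr2 (0.38, SE 0.08), Smad4 (0.51, SE 0.12), Runx3 (0.56, SE 0.18) and Smad7 (0.98, SE 0.33), and Tgfbr2 was the 1 called member in Sh3gl1-/- cells (0.40, SE 0.08), where DESeq2 called 2 and the replicate block within genotype 3. Of all genes, 11.7% rose and 14.2% fell in maturation in WT and 3.7% and 6.71% in Sh3gl1-/- cells. With single libraries left out, the call of Runx3 in maturation was kept only without transitional or follicular WT replicate 2, and that of Smad7 was lost without transitional WT replicates 1 or 2 or follicular WT replicate 1. The CD40L call of Cbfb was lost without follicular or CD40L WT replicate 2 (adjusted p 0.06 and 0.063), and that of Runx2 in Sh3gl1-/- cells was kept only without replicate 2 of either group. Between the genotypes 0 were called by edgeR or DESeq2 in each state, with 4, 2 and 0 at an unadjusted p under 0.05. Of all genes, 1.26% higher and 2.48% lower, 0.485% and 0.36%, and 0% and 0.0227% were called in the 3 states, so that 0 calls is near the background.

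Of 9 genes with reported HIVEP-bound control elements, 5 were tested, and the others, among them Il2 and Ifnb1, were at or near 0. Il2ra, which encodes the IL-2 receptor alpha chain, varied with both state and genotype. It was 26.7 ± 4.35 CPM in transitional WT and 11.6 ± 3.22 CPM in transitional Sh3gl1-/- cells, and it was called lower in the latter (log2 fold change -1.20, SE 0.21, edgeR adjusted p = 0.025). In follicular and CD40L-cultured cells it was not called, with log2 fold changes of 0.36 (SE 0.31) and -0.36 (SE 0.18) for Sh3gl1-/- over WT. In maturation it fell by 2.43 (SE 0.27, edgeR adjusted p = 3.2e-05) in WT and by 0.88 (SE 0.26, edgeR adjusted p = 0.045) in Sh3gl1-/- cells. With CD40L it rose by 3.35 (SE 0.25, edgeR adjusted p = 1.7e-07) and 2.61 (SE 0.24, edgeR adjusted p = 1.6e-06). Myc rose with CD40L in WT cells (1.09, SE 0.23, edgeR adjusted p = 0.0014) and in maturation in Sh3gl1-/- cells (0.38, SE 0.11, edgeR adjusted p = 0.031). The MHC class I gene H2-D1 had -0.59 (SE 0.23) with CD40L in WT cells, and S100a4, which encodes a calcium-binding protein, was called lower with CD40L in Sh3gl1-/- cells, from 1.48 ± 0.648 to 0.184 ± 0.219 CPM. Of these calls, that of Il2ra between the genotypes was kept only without transitional WT replicate 1 or Sh3gl1-/- replicate 2 (otherwise adjusted p 0.052 to 0.1), those of Il2ra and Myc in maturation in Sh3gl1-/- cells only without transitional replicate 3, and that of H2-D1 only without replicate 3 of follicular or replicate 2 of CD40L-cultured WT cells. In follicular and in CD40L-cultured cells 0 of the tested genes were called between the genotypes by edgeR or DESeq2, with 1 at an unadjusted p under 0.05 in each, beside 0.485% of all genes called higher and 0.36% lower in follicular and 0% and 0.0227% in CD40L-cultured cells. In transitional cells, where 1.26% of all genes were called higher and 2.48% lower, edgeR called 1 of the tested genes and DESeq2 2.

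V(D)J recombination genes formed the last list. The study gated transitional cells in part by IgM, a product of that process, so maturation is not read here as its end. In maturation 3 of 8 tested were called lower and 0 higher in WT cells (median -0.21) and 2 lower and 0 higher in Sh3gl1-/- cells (median -0.38), against 14.2% lower and 11.7% higher and 6.71% lower and 3.7% higher among all genes. Rag1 was 2.03 ± 1.63 CPM in transitional WT and 1.13 ± 1.07 CPM in transitional Sh3gl1-/- cells and at 0 in follicular cells. Xrcc6, which encodes the DNA end-binding protein Ku70, fell by 0.75 (SE 0.11) and Lig4, a DNA ligase, by 0.81 (SE 0.25) in WT cells, and Nhej1 fell by 0.80 (SE 0.20) in Sh3gl1-/- cells. With CD40L 2 of 7 rose and 2 fell in WT cells, and 2 rose and 0 fell in Sh3gl1-/- cells, against 23.6% and 25.7% of all genes in WT and 20.6% and 21.8% in Sh3gl1-/- cells, so that in WT cells the share called in either direction was near that of all genes. Xrcc5, which encodes Ku80, rose by 1.23 (SE 0.19) and 0.63 (SE 0.18), and Xrcc6 by 0.98 (SE 0.18) and 0.55 (SE 0.17), while Nhej1 had -0.57 (SE 0.20) and Dclre1c, which encodes Artemis, -0.36 (SE 0.13) in WT cells. Between the genotypes Xrcc6 was called lower in transitional Sh3gl1-/- cells (-0.43, SE 0.08, edgeR adjusted p = 0.031), and 0 of 7 were called in the other states by edgeR or DESeq2, with 1 and 0 at an unadjusted p under 0.05, beside 1.26% higher and 2.48% lower, 0.485% and 0.36%, and 0% and 0.0227% of all genes in the 3 states. With single libraries left out, the genotype call of Xrcc6 was kept only without transitional Sh3gl1-/- replicate 2 (otherwise adjusted p 0.052 to 0.14). In maturation Lig4 kept its call only without transitional WT replicate 3 or follicular WT replicate 1, Nhej1 only without transitional replicate 2 or follicular replicate 1 of Sh3gl1-/- cells, and Rag1 in Sh3gl1-/- cells only without transitional replicate 1 or 3. With CD40L, Dclre1c kept its call only without replicate 1 of either WT group, Nhej1 lost it without follicular WT replicate 2 or CD40L WT replicates 1 or 3, and in Sh3gl1-/- cells Xrcc5 lost it without replicate 1 of either group and Xrcc6 without follicular replicate 3 or CD40L replicate 1. Over all 5 lists, 6 genes were called in maturation in Sh3gl1-/- cells and 10 with the replicate number within each genotype as a block, against 1518 and 1950 of all genes. With CD40L this block took the list calls from 29 to 26 in WT cells, against 7126 and 6937 of all genes. In Sh3gl1-/- cells it took them from 28 to 23, against 6131 and 5870.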

How the data were processed

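Poly(A) RNA libraries of 18 samples were sequenced, 3 for each combination of genotype and cell state, and groups and replicate numbers came from the sample titles. The authors deposited 1 table of 51912 genes with expected counts, TPM and FPKM. The submitters' processing notes name cutadapt 1.9.1, STAR 2.5.2a and RSEM 1.3.0, whereas the methods of the study name TopHat and Cufflinks, and the build was GRCm38. The deposited expected counts are RSEM estimates that were not normalized. The deposited TPM and FPKM values are the authors' estimates scaled for transcript length and library size. All 54 columns of values were matched to libraries by name.

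Expected counts were rounded and tested with edgeR 4.0.16 in R 4.3.3 (TMM, filterByExpr by group, quasi-likelihood), with Benjamini-Hochberg adjustment over all tested genes and a threshold of 0.05. Genotypes were compared within each state on 6 libraries, and state changes and interactions on 12. SE is the log2 fold change divided by the square root of F. CPM used TMM-scaled library sizes, and log2 CPM a prior count of 2. Effective length was the count divided by FPKM and library total. Symbols and positions came from GENCODE M21, and promoters from RefSeq on GRCm38.p6, where all 3 Hivep genes matched. The study states 3 mice per genotype, and the labels do not say which libraries of different states share a mouse.

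The Hivep genes and the gene lists were chosen with earlier results of these data known. Named were the Hivep genes, Sh3gl1, up to 4 called members of each list and comparison with the lowest adjusted p, the 5 genes most like each Hivep gene, the nearest tested neighbors and the marker lists. Same-numbered libraries of transitional and follicular cells deviated together within a genotype (r 0.10 to 0.25 in WT and 0.11 to 0.26 in Sh3gl1-/-), as did follicular and CD40L-cultured WT cells (0.14 to 0.23) but not Sh3gl1-/- cells (0.03 to 0.12), and libraries of different genotypes did not (-0.09 to 0.10), so a block within genotype was added after the data were seen. Alternatives were DESeq2 1.42.0, RLE scaling, no count filter, limma 3.58.1 on log2(TPM + 0.5), 1 fit of all 18 libraries, replicate blocks and leaving out each library. Scripts were tested on simulated data. A floor of 3 counts corresponds to 0.163 to 0.242 CPM and covers counting error only.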

Additional observations from a re-analysis of the deposited data

How the results depend on the processing

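Of 375 values of the Hivep genes under the alternatives, 361 kept their direction and side of the threshold or moved by less than the spread. Calls for Hivep3 in maturation and Hivep2 with CD40L were kept in all of them. Hivep1 with CD40L in WT cells lost its call in TPM with limma (0.48, adjusted p 0.066) and ranged from 0.35 to 0.58 when single libraries were left out. Hivep1 in maturation in WT cells ranged from 0.24 to 0.48, passing without transitional or follicular WT replicate 3. Hivep2 in maturation in Sh3gl1-/- cells passed with DESeq2 and without the count filter (0.41 in both). Signs changed in some values, none of them past the threshold in a tested comparison. Hivep2 in maturation in WT cells was 0 with the replicate block within genotype and -0.13 to 0.16 with single libraries left out, Hivep1 in maturation in Sh3gl1-/- cells was -0.02 in TPM with limma, and the Hivep2 interaction for CD40L was -0.68 to 0.06 with single libraries left out, positive without CD40L WT replicate 2. Between the genotypes, Hivep2 in follicular cells was -0.03 in TPM with limma and -0.07 to 0.14 with single libraries left out, and after CD40L culture -0.6 to 0.13, and TPM with limma gave 1.99 for Hivep3 in follicular cells and 0.11 for Hivep1 after CD40L culture. The replicate block within genotype changed no other call of a Hivep gene. The cause of these differences was not tested.

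Counts of called genes moved far more. For the genotypes in transitional cells the 514 calls became 1245 with DESeq2, 1426 with no filter, 90 with the replicate block, 171 in TPM with limma, 144 in 1 fit of 18 libraries and 28 to 479 with single libraries left out. In follicular cells the 115 became 345, 602, 212, 61, 49 and 32 to 112 in the same order. After CD40L culture the 3 became 75 with DESeq2, 216 with no filter, 21 with the replicate block, 82 in the fit of 18 libraries and 1 to 9 with single libraries left out. Maturation had 3772 calls in WT (2444 to 3324 with single libraries left out) and 1518 in Sh3gl1-/- cells (986 to 1351). Its 10 interaction calls became 345 with DESeq2, 462 with no filter, 20 with the replicate block, 99 with the block within genotype, 0 in TPM with limma and in the fit of 18 libraries, and 0 to 23 with single libraries left out. The 0 interaction calls for CD40L became 12, 210 with no filter and 0 to 1.

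Members of the 5 lists called between the genotypes went from 3 in transitional cells to 5 with DESeq2, 6 with no filter, 0 with the replicate block and in TPM with limma, and 0 to 2 with single libraries left out. In follicular cells the 1 call became 2 with no filter, 0 in TPM with limma and in the fit of 18 libraries, and 0 to 1 with single libraries left out, and after CD40L culture 0 became 1 with no filter. In maturation the 14 in WT cells became 6 in TPM with limma, 9 in the fit of 18 libraries and 8 to 13 with single libraries left out, and the 6 in Sh3gl1-/- cells became 13 with no filter, 10 with the block within genotype and 2 to 6. Interaction calls rose from 0 to 1 with DESeq2 or the block within genotype and 4 with no filter for maturation, and to 2 with no filter for CD40L. TPM with limma shifted the median of all genes by -0.13 for CD40L in WT cells. The lowest count of a Hivep gene in a library was 63.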

Other observations

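Values of the other marker lists follow, with their part in the results not tested. The 5 NK-cell markers, led by Gzma ex vivo, summed to medians of 21.1 CPM in WT and 50.3 CPM in Sh3gl1-/- transitional cells, 30.7 and 54.9 CPM in follicular cells and 5.29 and 5.09 CPM after CD40L culture. The 6 monocyte and macrophage markers summed to 437.5 and 443.1 CPM, 114.0 and 206.9 CPM, and 93.6 and 64.4 CPM in the same order, and the 6 B-1 cell markers to 139.0 and 139.5 CPM, 64.1 and 65.1 CPM, and 79.9 and 60.8 CPM. For the NK-cell sum and for the monocyte and macrophage sum the genotypes overlapped in each state. For the B-1 sum they overlapped ex vivo but not after CD40L culture. The 5 germinal centre markers, led by the proliferation gene Mki67, summed to 90.9 and 46.7 CPM in transitional cells, where the genotypes did not overlap, 12.1 and 12.6 CPM in follicular cells and 27.7 and 23.1 CPM after CD40L culture. The 4 platelet markers summed to no more than 5.45 CPM in any library.

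Single genes near the other Hivep loci were called between the genotypes in transitional cells and are named after their values were seen. They were 1 of 5 tested genes within 1 Mb of Hivep1 and 1 of 10 within 1 Mb of Hivep2. Of all genes, 1.26% were called higher and 2.48% lower in these cells. Within 1 Mb of Hivep1, Nedd9, which encodes a scaffold protein of integrin signaling, was 771.3 CPM in WT and 411.6 CPM in Sh3gl1-/- cells (log2 fold change -0.91, SE 0.13, edgeR adjusted p = 0.013). Within 1 Mb of Hivep2, Ltv1, which encodes a ribosome assembly factor, was 89.1 and 64.1 CPM (-0.47, SE 0.09, edgeR adjusted p = 0.027). The calls of Nedd9 and Ltv1 were not followed with single libraries left out.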
